A study of Mus musculus with 16 samples.

Results

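Tubulins and the proteins that bind microtubules were followed through 10 RNAs in all 16 samples of an RNA-Seq experiment on protrusions and cell bodies of NIH/3T3 fibroblasts, an established mouse embryonic line. The 10 RNAs were taken by name, by a rule that uses no measured value, though with earlier results of these data known. They are 3 α-tubulins (Tuba1a, Tuba1b, Tuba1c), 4 β-tubulins (Tubb5, Tubb6, Tubb2a, Tubb4b), the microtubule-associated proteins Map4 and Map1b, and the end-binding protein Mapre1. All 10 are among the 12900 RNAs of the table. The cells carried a stably integrated lentiviral construct that doxycycline switches on and that encodes human β-globin. In the HBB line this construct ends in the 3′UTR of β-globin itself, in the Pkp4 cUTR line (for competing UTR) in that of Pkp4, and whether either line is a single clone is not given in the sources used here. Both lines received 1 μg/ml doxycycline for 3 days, were plated without serum for 2 h on filters with 3.0-μm pores and met LPA from below for 1 h. Fixation took 10 min in paraformaldehyde at 0.3%. Protrusions (Ps) are what had grown through to the underside, cell bodies (CB) are what stayed on top, and each fraction came from filters of its own. There are 4 samples of each fraction in each line, which the study calls independent replicates. The labels do not say whether they came from separate cultures, and p-values measure the spread between these samples.

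Microtubules are hollow polymers of α- and β-tubulin dimers, each encoded by several genes whose proteins, the isotypes, can be mixed in one polymer. They grow and shrink mainly at their plus ends, where end-binding proteins such as the product of Mapre1 (EB1) recruit other factors, APC among them. Proteins such as those of Map4 and Map1b bind along the polymer and stabilise it. The last amino acid of most α-tubulins is a tyrosine, which an enzyme pair of a vasohibin and Svbp removes and the ligase Ttl puts back. Microtubules without this tyrosine are long-lived and, in migrating fibroblasts, point towards the leading edge. Cells also adjust tubulin RNA to the amount of free tubulin dimers: the factor Ttc5 binds the first amino acids of a nascent tubulin on the ribosome and leads to decay of the RNA being translated.

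The beginnings of the coding sequences are shown because they encode what Ttc5 reads, and because they show how alike the isotypes are. Each is the first 30 bases of the coding sequence in the GENCODE vM21 transcripts (GRCm38), on the coding strand from 5′ to 3′, with the first 4 codons in capitals.
Tuba1a: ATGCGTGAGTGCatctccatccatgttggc
Tuba1b: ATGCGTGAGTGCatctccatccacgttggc
Tuba1c: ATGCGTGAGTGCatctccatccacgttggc
Tubb5: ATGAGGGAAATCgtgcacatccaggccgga
Tubb2a: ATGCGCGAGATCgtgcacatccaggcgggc
Tubb4b: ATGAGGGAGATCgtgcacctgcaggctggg
The 12 capital bases are identical in the 3 α-tubulins, and the shown bases of Tuba1b and Tuba1c do not differ at all.

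Over whole coding sequences, identity was 97.1% to 98.3% among the 3 α-tubulins, 82.2% to 84.6% among Tubb5, Tubb2a and Tubb4b, and 56.1% to 57.7% between an α- and a β-tubulin.

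This likeness bears on the values. Of all windows of 100 bases, somewhat shorter than a read, along its longest coding transcript, the share found without mismatch in transcripts of other genes was 65.1% for Tuba1a, 69.5% for Tuba1b, 53.4% for Tuba1c, 36.9% for Tubb2a and 29.15% for Tubb4b. Tuba1a, Tuba1b and Tuba1c share windows with each other and with predicted genes, Tubb2a mainly with Tubb2b and Tubb4b mainly with a pseudogene. For Tubb5, Tubb6, Map4, Map1b and Mapre1 the share was 0%. How the counting treated reads with several matches is not given in the sources used here, so the split of reads among the 3 α-tubulins is uncertain, and their sum is given as well. On GRCm38 the α-tubulin genes lie close together, Tuba1b at chr15:98931425-98934565 and Tuba1a at chr15:98949837-98953703 on the minus strand and Tuba1c at chr15:99029891-99038110 on the plus strand. Tubb5 lies at chr17:35833921-35838306, Tubb2a at chr13:34074274-34078007 and Tubb4b at chr2:25222160-25224702, all on the minus strand. Map4 lies at chr9:109931460-110083955 and Mapre1 at chr2:153741274-153773310 on the plus strand, and Map1b at chr13:99421446-99516540 on the minus strand. Reads were counted over exons.

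The deposited values are log2 CPM, the log2 of counts per 1000000 reads of a scaled library size. Between 18660287 and 31260831 reads per sample were assigned to the table's RNAs, and the least counted member, Map1b, had 126 to 388 reads per sample. Of 10 fibroblast markers 8 were in the table, among them Col1a1 and Vim. Of 14 markers of epithelial, endothelial, immune and neuronal cells 5 were in the table; Krt14 reached 269.7 CPM and the other 4 at most 6.70 CPM. As a check of the fractions, 6 RNAs that the study treats as localized at protrusions rose in HBB protrusions by 0.97 to 3.14 (log2), and 5 of the 6 rose in those of the Pkp4 cUTR line. The other was Pkp4 itself (0.42, limma adjusted p = 0.0735), whose reads there include those of the construct. Of 4 RNAs listed as kept in the nucleus, 2 fell and 1 rose in each line: in the HBB line Malat1 stood at −1.85 and Neat1 at −1.48, Kcnq1ot1 had −0.55 without passing the test (limma adjusted p = 0.161), and Pvt1 rose by 0.51 (adjusted p = 0.000151). Reads of Pkp4, which cover the construct, were 21.7-fold higher in Pkp4 cUTR than in HBB cell bodies. The factor by which the authors scaled each library lay below 1 in all protrusion samples and above 1 in all cell-body samples (0.828 to 1.11). Of the cell bodies, replicate 4 stood furthest from its group in both lines: its log2 CPM differed from the mean of the other 3 samples by a median of 0.159 in the HBB and 0.192 in the Pkp4 cUTR line, over 10154 RNAs, against 0.0891 to 0.145 for the other cell bodies and 0.0834 to 0.1795 for protrusions, where replicate 3 of the Pkp4 cUTR line was highest. Results are given with and without both where this matters.

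Levels differed widely among the members. Per kilobase of exon, the mean over 16 samples was 282.6 ± 19.3 CPM per kb (SD) for Tubb5, 175.5 ± 24.2 for Tuba1b and 159.1 ± 12.9 for Tuba1a. Tubb2a followed with 80.4 ± 9.63 CPM per kb, Tubb4b with 72.1 ± 8.39, Tuba1c with 47.2 ± 5.24 and Tubb6 with 28.0 ± 2.14. The binding proteins were lowest, with 16.7 ± 4.60 CPM per kb for Map4, 10.3 ± 2.03 for Mapre1 and 0.728 ± 0.304 for Map1b, which is best known from neurons. The samples of neighbours in this order overlapped for Tuba1b and Tuba1a, Tubb2a and Tubb4b, Tubb6 and Map4, and Map4 and Mapre1. The length of a gene with many transcripts is a matter of choice: with the length of the longest coding transcript, Map4 came to 41.4 CPM per kb, above Tubb6 with 38.8, and Tubb4b to 94.2, above Tubb2a with 80.4.

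**Figure D1:**
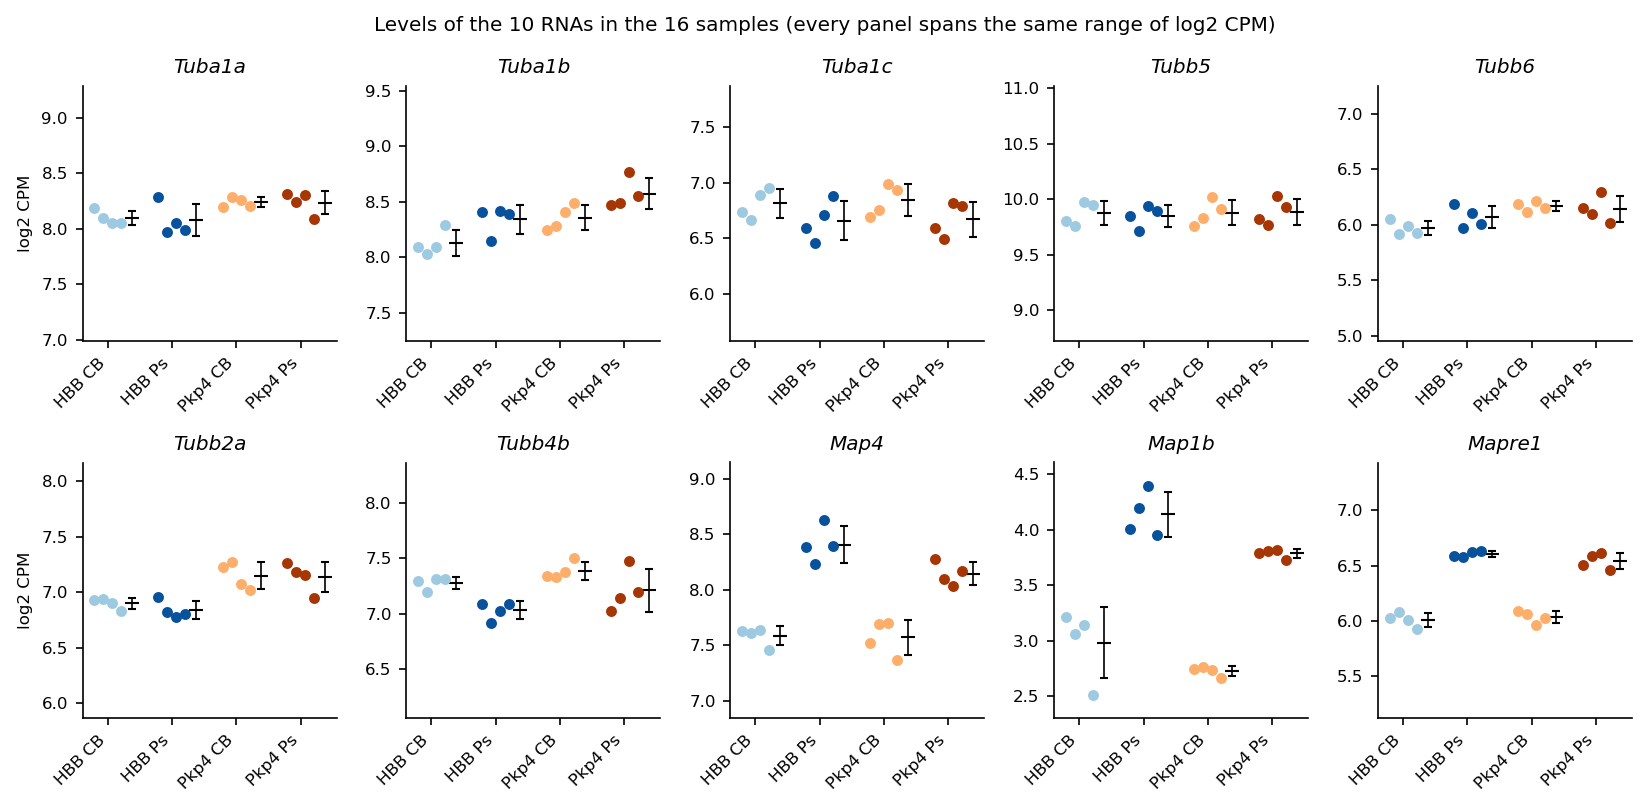
Log2 CPM (y axis) of the 10 RNAs in the 4 groups (x axis); points are samples, with replicates 1 to 4 from left to right, and the mark with bars beside them is the mean ± SD. Map4, Map1b and Mapre1 lie higher in every Ps sample than in every CB sample of the same line, while the Ps and CB samples of Tuba1a, Tubb5 and Tubb2a overlap.

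Ps were first compared with CB of the HBB line, which asks where each RNA lies in cells without a competing protrusion-targeting UTR. The 3 RNAs of binding proteins were higher in protrusions, Map1b 2.19-fold, Map4 1.77-fold and Mapre1 1.51-fold, while the 7 tubulin RNAs differed by at most 1.19-fold in either direction. Of the 10 members, 4 rose (Map1b, Map4, Mapre1 and Tuba1b) and 1 fell (Tubb4b) at an adjusted p under 0.05 by limma-voom with Benjamini-Hochberg adjustment over all 12900 RNAs. Of all RNAs, 28.3% rose and 28.9% fell by this rule, so that these counts are near the background. By the study's own threshold (FC > 2, with p under 0.05 unadjusted), 1 member (Map1b) was enriched at protrusions, beside 4.54% of all RNAs. Map1b was under this fold with reads scaled to totals (log2 0.90) and without replicate 4 of the HBB cell bodies (0.99).

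Map1b, whose product stabilises microtubules and also binds actin, had log2 CPM values of 3.21, 3.06, 3.14 and 2.52 in the 4 HBB cell bodies and of 4.01, 4.20, 4.40 and 3.96 in the 4 HBB protrusions. All protrusion samples lay above all cell bodies, and the lowest cell body was replicate 4. The log2 fold change was 1.13 (SE 0.12, limma adjusted p = 5.12e-07), and without replicate 4 of the cell bodies of both lines it was 0.99.

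Map4, the main microtubule-associated protein of non-neuronal cells, had log2 CPM values of 7.63, 7.62, 7.64 and 7.46 in cell bodies and of 8.38, 8.23, 8.63 and 8.39 in protrusions of the HBB line. The groups did not overlap. Its log2 fold change was 0.82 (SE 0.09, limma adjusted p = 6.17e-07).

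For Mapre1, which encodes EB1, the HBB cell bodies had log2 CPM values of 6.02, 6.08, 6.01 and 5.93 and the protrusions of 6.59, 6.57, 6.62 and 6.63. Each fraction held together closely and they did not overlap. Its log2 fold change was 0.59 (SE 0.06, limma adjusted p = 2.12e-07). All protrusion samples lay above all cell bodies for 3 members, these binding proteins, beside 25.5% of all RNAs.

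Of the α-tubulins, Tuba1b passed the test. Its log2 CPM values were 8.09, 8.03, 8.10 and 8.29 in HBB cell bodies and 8.41, 8.15, 8.42 and 8.39 in HBB protrusions. The groups overlapped, through replicate 4 of the cell bodies, which was high, and replicate 2 of the protrusions, which was low. The log2 fold change was 0.21 (SE 0.09, limma adjusted p = 0.0419). This call is fragile: it was lost (adjusted p between 0.0887 and 0.118) without any single one of 6 libraries, namely replicates 1, 2 and 3 of the HBB cell bodies and replicates 1, 3 and 4 of the HBB protrusions. Without replicate 4 of the cell bodies of both lines, it was 0.27 with an adjusted p of 0.0101. Tuba1a differed by −0.02 (95% interval −0.18 to 0.13) and Tuba1c by −0.15 (−0.36 to 0.06, limma adjusted p = 0.201). Summed per kilobase, the 3 α-tubulins came to 350.6 ± 13.9 CPM per kb in HBB cell bodies and 367.9 ± 28.2 in HBB protrusions (SD, n = 4), a difference smaller than the SD of the protrusions.

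Of the β-tubulins, Tubb4b fell. Its log2 CPM values were 7.30, 7.20, 7.31 and 7.31 in HBB cell bodies and 7.09, 6.92, 7.03 and 7.09 in HBB protrusions. All cell bodies lay above all protrusions, which held for 1 member beside 26.8% of all RNAs. The log2 fold change was −0.25 (SE 0.08, limma adjusted p = 0.0143). Tubb5, by far the most abundant, differed by −0.02 (95% interval −0.19 to 0.15), Tubb2a by −0.06 (−0.22 to 0.10) and Tubb6 by 0.10 (−0.05 to 0.24). The 4 β-tubulins together came to 457.1 ± 21.8 CPM per kb in cell bodies and 439.3 ± 22.1 in protrusions (SD, n = 4).

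All these values are relative to the other RNAs of a sample, and a protrusion sample with less RNA in all could not be told from one with as much. When the reads were scaled to the library totals alone, the median of all RNAs shifted to −0.23 in the HBB and −0.25 in the Pkp4 cUTR line, and the share of calls that were higher in protrusions went from 49.5% to 25.7% and from 49.7% to 23.4%. On that scale Map1b, Map4 and Mapre1 still rose in both lines, 3 members beside 15% of all RNAs in the HBB and 13.9% in the Pkp4 cUTR line. Tuba1b had −0.02 and −0.05, and 5 members in the HBB and 6 in the Pkp4 cUTR line fell, beside 43.5% and 45.5% of all RNAs. Relative to the shifted median, Tuba1b stood at 0.21 in both lines and Tubb4b at −0.25 and −0.19.

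**Figure D2:**
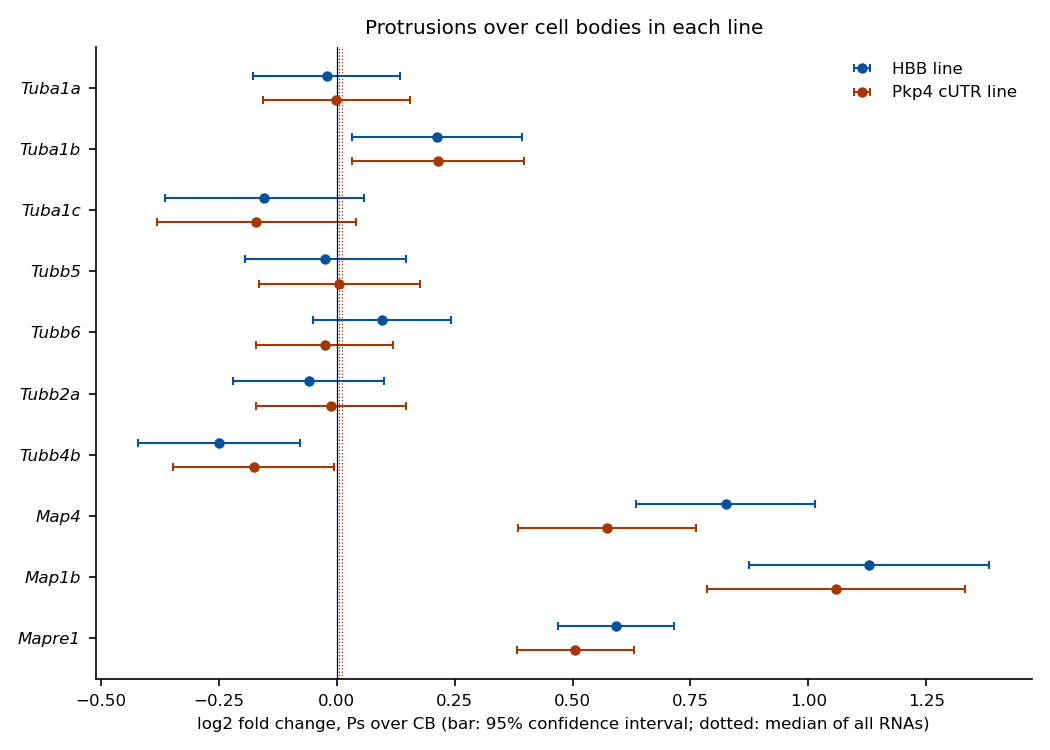
Log2 fold change of Ps over CB (x axis) for each RNA (y axis) in the HBB and the Pkp4 cUTR line; points are limma-voom estimates, bars their 95% confidence intervals and dotted lines the median of all RNAs. Map1b, Map4 and Mapre1 lie between 0.51 and 1.13, and the 7 tubulins between −0.25 and 0.21.

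In the Pkp4 cUTR line, where the study uses the Pkp4 3′UTR to compete with other localized RNAs, the same comparison was made with separate samples. Map1b, Map4, Mapre1 and Tuba1b rose again, 4 members beside 28.2% of all RNAs, and no member fell at an adjusted p under 0.05, beside 28.5% of all RNAs. At an unadjusted p under 0.05, 5 members differed, with Tubb4b as the fifth, beside 61.5% of all RNAs. Map1b alone passed the study's threshold, 1 member beside 5.07% of all RNAs, and was under that fold with reads scaled to totals (log2 0.79) and on the log2(CPM + 1) scale (0.96).

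Map1b had log2 CPM values of 2.75, 2.76, 2.73 and 2.67 in Pkp4 cUTR cell bodies and of 3.79, 3.81, 3.82 and 3.73 in protrusions. These were much tighter than in the HBB line and gave a log2 fold change of 1.06 (SE 0.13, limma adjusted p = 2.86e-06). Map4 had 7.52, 7.70, 7.70 and 7.37 in cell bodies and 8.28, 8.10, 8.03 and 8.17 in protrusions, again without overlap. Its log2 fold change was 0.57 (SE 0.09, limma adjusted p = 3.60e-05).

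Mapre1 had log2 CPM values of 6.09, 6.06, 5.96 and 6.03 in Pkp4 cUTR cell bodies and of 6.51, 6.59, 6.61 and 6.46 in protrusions. Its fractions did not overlap either, and the log2 fold change was 0.51 (SE 0.06, limma adjusted p = 1.55e-06). All protrusions lay above all cell bodies for 3 members, beside 22.6% of all RNAs, and below them for 0 members, beside 22.2%.

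For Tuba1b, the Pkp4 cUTR cell bodies had log2 CPM values of 8.25, 8.28, 8.41 and 8.49 and the protrusions of 8.47, 8.49, 8.77 and 8.55. Only replicate 4 of the cell bodies reached into the range of the protrusions. The log2 fold change was 0.21 (SE 0.09, limma adjusted p = 0.0415), and the call was lost (adjusted p between 0.0503 and 0.150) without any single one of 6 libraries, namely HBB CB replicate 1, Pkp4 cUTR CB replicates 1, 2 and 3 and Pkp4 cUTR Ps replicates 3 and 4. Without replicate 4 of the cell bodies of both lines it was 0.26 with an adjusted p of 0.0125.

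Tubb4b had log2 CPM values of 7.34, 7.33, 7.37 and 7.50 in Pkp4 cUTR cell bodies and of 7.02, 7.14, 7.48 and 7.20 in protrusions. Replicate 3 of the protrusions lay among the cell bodies and the other 3 below them. The log2 fold change of −0.18 (SE 0.08) missed the threshold (limma adjusted p = 0.0738), and without that replicate it was −0.27 (adjusted p = 0.00387). Tuba1a, Tubb5, Tubb6 and Tubb2a differed by −0.00, 0.01, −0.03 and −0.01 (log2), with 95% intervals that stayed between −0.17 and 0.18. Tuba1c differed by −0.17 (95% interval −0.38 to 0.04).

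The lines were next compared for the enrichment itself, log2(Diff FC), the log2 fold change of the Pkp4 cUTR minus that of the HBB line. No member passed an adjusted p under 0.05 by limma-voom, and none of the 12900 RNAs did (0%). The study used other cutoffs on log2(Diff FC) and p, among RNAs enriched in HBB protrusions. With these it reports a subset that became less enriched in the Pkp4 cUTR line. It also reports less peripheral Ddr2 and Kank2 RNA by in situ hybridization. Its cutoffs were not applied here, so the 0% is not set against that subset. At an unadjusted p under 0.05 there were 300 RNAs (2.33%), and 0 of the 10 members. The smallest p among the members was that of Map4, 1.77-fold enriched in the HBB and 1.49-fold in the Pkp4 cUTR line, with a log2(Diff FC) of −0.25 (95% interval −0.52 to 0.02, limma unadjusted p = 0.0632, adjusted p = 1.00). The other 9 lay between −0.12 and 0.07, with intervals that reached from −0.44 to 0.32, so that differences of that size were not detectable here.

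The levels in the 2 lines were compared within each fraction. A difference in protrusions mixes RNA amount with localization, and only the cell bodies come near a comparison of amounts. Each construct was studied in a single line, so the UTR cannot be told apart from other differences between the lines. The p-values here measure the spread between samples of these lines, not between lines. Tubb2a was higher in the Pkp4 cUTR line in both fractions and was the 1 member called higher in each, beside 3.42% of all RNAs in cell bodies and 2.89% in protrusions. No member was called lower, beside 5.55% and 4.26% of all RNAs. Samples of equal number deviated together between the lines in both fractions, so a fit with a replicate block shared by the lines is given beside this one. Its block also gives Ps and CB of equal number a common effect, though these were not taken as paired, and its calls rest on that. This fit called 3 members higher in cell bodies (Tubb2a, Tubb6 and Tuba1b) and, in protrusions, 2 higher (Tubb2a and Tuba1b) and 1 lower (Map1b). That fit called 4.7% of all RNAs higher and 6.51% lower in cell bodies, and 4.47% higher and 5.87% lower in protrusions. The summed level of the 5 markers of other cell types, nearly all of it Krt14, also differed between the lines, with 154.7 to 171.6 CPM in HBB and 222.0 to 276.7 CPM in Pkp4 cUTR cell bodies, and 153.0 to 188.3 against 231.8 to 279.0 CPM in protrusions. In cell bodies 2 of the 5 were called higher (Krt14 and Cdh1) and 1 lower (Cdh5), and in protrusions 1 higher (Krt14) and 0 lower, and their part in the differences of the tubulins was not tested.

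Tubb2a had log2 CPM values of 6.93, 6.94, 6.90 and 6.83 in HBB and of 7.23, 7.27, 7.08 and 7.02 in Pkp4 cUTR cell bodies. The lines did not overlap there, nor did they for Tubb6, Tuba1a and Tubb4b. The share of all RNAs without overlap between the lines was not counted in either fraction, so such gaps are descriptions only. Tuba1a and Tubb4b were not called in cell bodies (limma adjusted p = 0.274 and 0.483). The log2 fold change of Tubb2a in Pkp4 cUTR over HBB cell bodies was 0.25 (SE 0.08, limma adjusted p = 0.0452, with the replicate block 0.0114). In protrusions it had 6.96, 6.83, 6.78 and 6.80 in the HBB and 7.27, 7.19, 7.16 and 6.94 in the Pkp4 cUTR line. Here replicate 4 of the Pkp4 cUTR line fell within the range of the HBB samples, and the log2 fold change was 0.30 (SE 0.08, limma adjusted p = 0.0219, with the replicate block 0.00410). The call in cell bodies without the block was lost (adjusted p between 0.0504 and 0.136) without any single one of 11 libraries, all 8 of the HBB line, Pkp4 cUTR CB replicates 1 and 2 and Pkp4 cUTR Ps replicate 2. That in protrusions was lost (0.0597 to 0.0682) without replicate 3 or 4 of the HBB or 1 or 2 of the Pkp4 cUTR protrusions. With reads scaled to the library totals, the adjusted p was 0.0650 in cell bodies and 0.0539 in protrusions.

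Tuba1b was higher by 0.23 in both fractions (limma adjusted p = 0.114 in cell bodies and 0.117 in protrusions, with the replicate block 0.0489 and 0.0471). In protrusions its HBB samples reached 8.42 at most, and its Pkp4 cUTR samples began at 8.47. Tubb6 differed by 0.20 in cell bodies (limma adjusted p = 0.0853, with the replicate block 0.0360). Its HBB cell bodies lay between 5.92 and 6.05 log2 CPM and its Pkp4 cUTR cell bodies between 6.11 and 6.22.

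Tuba1a differed by 0.14 in cell bodies and 0.16 in protrusions (limma adjusted p = 0.274 and 0.203), and Tubb4b by 0.18 in protrusions (adjusted p = 0.207). The α-tubulins together came to 392.8 ± 18.6 CPM per kb in Pkp4 cUTR cell bodies and 415.9 ± 28.6 in Pkp4 cUTR protrusions (SD, n = 4), both above the values of the HBB line given before.

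The RNAs of Map1b and Map4 leaned the other way in protrusions. Map1b differed by −0.35 (SE 0.12, limma adjusted p = 0.0871, with the replicate block 0.0344): its Pkp4 cUTR protrusions, at most 3.82, all lay below its HBB protrusions, at least 3.96. Map4 differed by −0.26 (SE 0.09, limma adjusted p = 0.0881, with the replicate block 0.0681), and its protrusions overlapped between the lines. In cell bodies Map1b differed by −0.28 (limma adjusted p = 0.223). Without replicate 4 of the HBB cell bodies, Map1b was called lower in both fractions (−0.41 with adjusted p = 0.0239 in cell bodies, −0.35 with 0.0252 in protrusions). Map4 was called lower in protrusions without replicate 2 of the HBB protrusions (adjusted p = 0.0475) or without Pkp4 cUTR CB replicate 4 (0.0498). By replicate number 1 to 4, its protrusions differed between the lines by −0.105, −0.13, −0.594 and −0.224, the most in replicate 3. Over all single leave-outs, the protrusion difference ran from −0.32 to −0.19 for Map4 and from −0.41 to −0.26 for Map1b. Without replicate 4 of the cell bodies of both lines, both were called lower in protrusions (limma adjusted p = 0.0217 for Map1b and 0.0404 for Map4). Of all RNAs, 5.81% were then called lower and 4.13% higher in protrusions. The estimates there stayed at −0.35 and −0.26, since no protrusion sample was left out. What fell was the SE, from 0.12 to 0.09 for Map1b and from 0.09 to 0.08 for Map4, through the spread shared by all samples. Leaving out the single cell bodies named above also left the protrusion estimates at these values. Without both replicates 4, 0 members were called in cell bodies, beside 2% called higher and 3.95% lower. Members not yet given lay between −0.01 and 0.11 in cell bodies (5 RNAs) and between −0.06 and 0.07 in protrusions (4 RNAs).

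**Figure D3:**
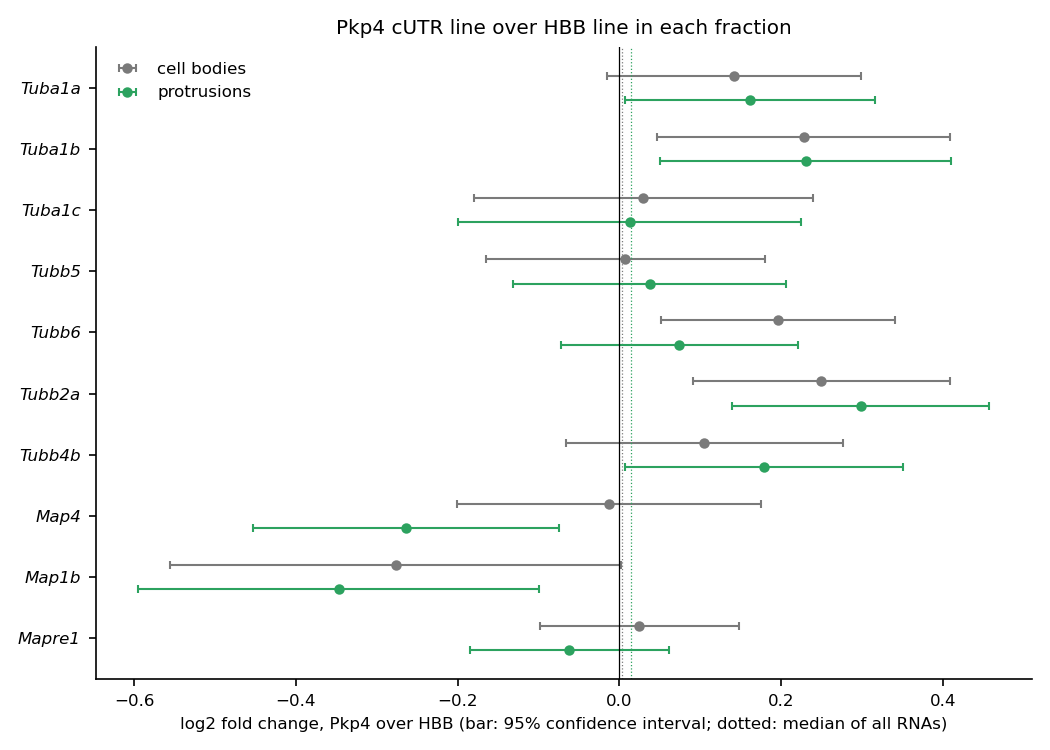
Log2 fold change of the Pkp4 cUTR over the HBB line (x axis) for each RNA (y axis) in cell bodies and in protrusions; points are limma-voom estimates without a replicate block, bars their 95% confidence intervals and dotted lines the median of all RNAs. Tubb2a lies at 0.25 in CB and 0.30 in Ps, Map1b at −0.28 and −0.35.

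The make-up of the tubulin pool was described by the share of each isotype in the reads per kilobase of its family, with no test. Tuba1b and Tuba1a made up 45.8% ± 2.96 and 41.8% ± 2.63 of the α-tubulin members (SD over 16 samples), and Tuba1c 12.4% ± 1.53. Of the β-tubulin members Tubb5 made up 61.0% ± 2.41, Tubb2a 17.4% ± 1.94, Tubb4b 15.5% ± 1.22 and Tubb6 6.04% ± 0.37. The division of the α-tubulin shares rests on the uncertain reads named above.

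Shares differed by a few percentage points between fractions. Tuba1b went from 42.6% ± 1.90 of the α-tubulins in HBB cell bodies to 47.1% ± 1.46 in HBB protrusions, and from 44.6% ± 1.69 to 48.9% ± 2.04 in the Pkp4 cUTR line (SD, n = 4). The samples of both fractions did not overlap in the HBB line and overlapped in the Pkp4 cUTR line. Tuba1c went the other way, from 14.1% ± 0.98 to 12.1% ± 1.33 and from 12.8% ± 0.71 to 10.8% ± 0.96. Among the β-tubulins, Tubb4b went from 16.3% ± 0.43 to 14.3% ± 0.38 without overlap in the HBB line, and from 16.6% ± 0.93 to 15.0% ± 1.18 with overlap in the Pkp4 cUTR line. Between the lines, Tubb5 was at 61.8% ± 1.82 in HBB and 58.9% ± 2.30 in Pkp4 cUTR cell bodies, and Tubb2a at 16.3% ± 1.21 and 18.4% ± 2.11.

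**Figure D4:**
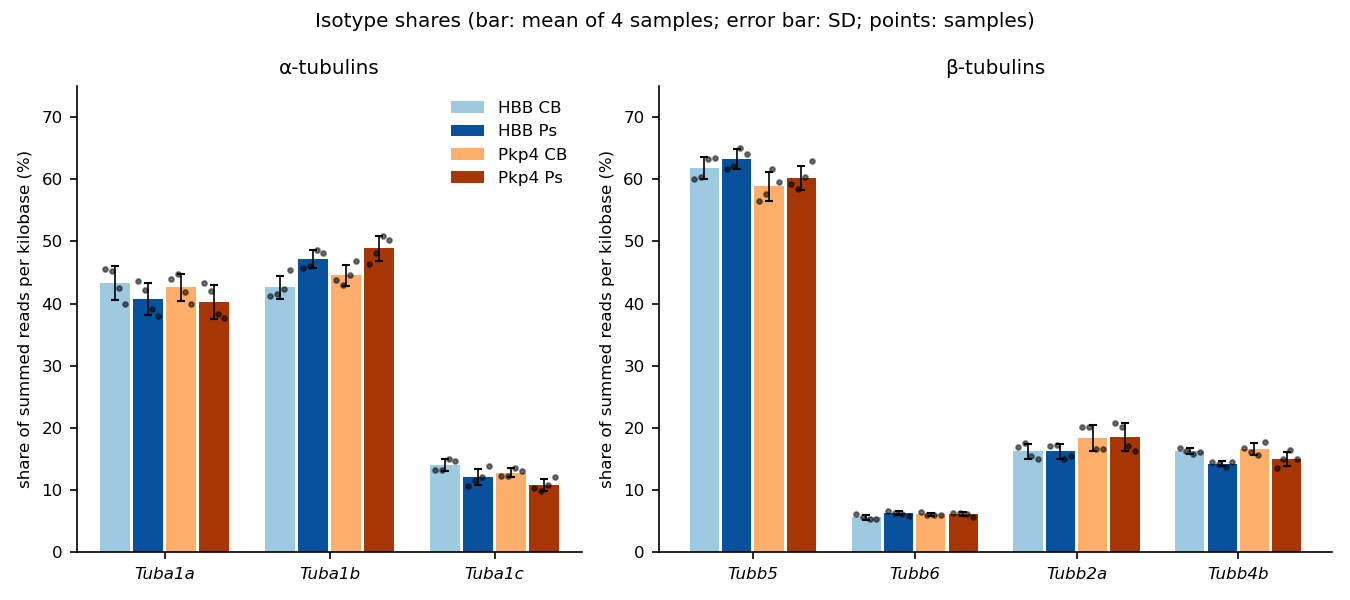
Share of each isotype (x axis) in the summed reads per kilobase of the 3 α-tubulin and the 4 β-tubulin members (y axis, %); bars are means of 4 samples, error bars SD, and points samples. Tubb5 holds 56.5% to 65.0% of the β-tubulin members in every sample, and Tuba1b and Tuba1a hold similar shares of the α-tubulins.

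Other RNAs of the microtubule system were taken from 6 lists of 118 genes, of which 93 were in the table. In the HBB line 28 of the 93 rose and 24 fell in protrusions, and in the Pkp4 cUTR line 32 rose and 19 fell, at an adjusted p under 0.05 by limma-voom. The median log2 fold change was 0.03 in the HBB and 0.12 in the Pkp4 cUTR line, beside 0.01 in both for all RNAs. Of all RNAs 28.3% rose and 28.9% fell in the HBB line, and 28.2% rose and 28.5% fell in the Pkp4 cUTR line, so that the counts over the 93 are near the background, and those of the single lists below are small numbers to be read against the same shares.

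Of 7 other tubulins in the table, 1 rose and 1 fell in each line, but the RNA that fell was not the same. In the Pkp4 cUTR line it was Tube1 (−0.55, limma adjusted p = 0.0436), of low level (mean log2 CPM 0.37), which had −0.03 in the HBB line. Tubb2b, the close copy of Tubb2a, rose by 0.28 and 0.34 (limma adjusted p = 0.0143 and 0.00325 in the HBB and Pkp4 cUTR line). Tubg1, the γ-tubulin that nucleates microtubules, fell by 0.16 in the HBB line (adjusted p = 0.0435) and had −0.13 in the Pkp4 cUTR line (adjusted p = 0.106). Tubb4a had 0.30 and 0.23 without passing the test (adjusted p = 0.0775 and 0.193).

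Of 17 other lattice-binding proteins 3 rose and 5 fell in the HBB line, and 6 rose and 4 fell in the Pkp4 cUTR line. Map1s, a relative of Map1b, fell by 0.51 and 0.42 and Eml3 fell by 0.58 and 0.50, while the doublecortin-like kinase Dclk1 rose by 0.53 and 0.77 (all with limma adjusted p of 0.000611 or less). Eml4, named after its values were seen, had 444 to 894 reads in HBB cell bodies and 197 to 273 in Pkp4 cUTR cell bodies. Its level was 3.08-fold lower in the Pkp4 cUTR cell bodies (limma adjusted p = 4.22e-07), and 1.71-fold lower in the protrusions (adjusted p = 0.00257). From cell bodies to protrusions it fell by 0.53 in the HBB line (adjusted p = 0.00151) and had 0.32 in the Pkp4 cUTR line (adjusted p = 0.0769). The test of its log2(Diff FC), 0.85, gave an unadjusted p of 0.000385, which did not pass after adjustment.

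Among 31 proteins of plus and minus ends, 10 rose and 9 fell in the HBB line, and 10 rose and 6 fell in the Pkp4 cUTR line. Camsap2, which caps and protects minus ends, rose by 1.01 and 1.03, and Dst, a linker between microtubule ends and actin, rose by 0.80 and 0.90. Pcnt, the centrosomal scaffold pericentrin, fell by 1.09 and 0.93. These 3 had limma adjusted p of at most 4.77e-06 in both lines.

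The enzymes that modify tubulin comprised 18 RNAs of the table, and 7 rose and 4 fell in each line. Svbp, the partner of the vasohibins, is listed under its older symbol Ccdc23 and rose by 0.93 and 0.88 (limma adjusted p = 1.51e-05 and 2.94e-05), from 35.3 to 48.1 CPM in HBB cell bodies to 69.0 to 85.8 CPM in HBB protrusions. Vash2, a vasohibin, fell by 0.39 and 0.40 (adjusted p = 0.00248 and 0.00207), and Vash1 was not in the table. Ttl, the ligase that restores the tyrosine, had 0.09 and −0.06 (adjusted p = 0.368 and 0.519). Of the enzymes of polyglutamylation, Tpgs2 rose by 0.69 and 0.50 and Ttll4 fell by 0.57 and 0.51 (adjusted p at most 0.000290).

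Of 8 RNAs for tubulin folding and autoregulation, 4 rose and 1 fell in each line, with medians of 0.21 and 0.23, beside 28.3% and 28.2% of all RNAs that rose. Tbca, a cofactor that holds β-tubulin during dimer assembly, rose by 1.19 and 1.05 (limma adjusted p = 6.21e-08 and 3.27e-07). Arl2, a small GTPase that works with these cofactors, rose by 0.33 and 0.40 (adjusted p = 0.0287 and 0.00971). Ttc5, which reads the start of the tubulins shown above, fell by 0.32 in the Pkp4 cUTR line (adjusted p = 0.00154) and had −0.15 in the HBB line (adjusted p = 0.0943).

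Of 12 destabilisers and severing enzymes, 3 rose and 4 fell in the HBB line, and 4 rose and 3 fell in the Pkp4 cUTR line. Katna1, the catalytic subunit of the severing enzyme katanin, rose by 0.50 and 0.43, and Kif2a, a kinesin that depolymerises ends, rose by 0.31 and 0.48. Kif18b, a mitotic kinesin, fell by 0.93 and 1.02. For these 3 the limma adjusted p was at most 0.0184.

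**Figure D5:**
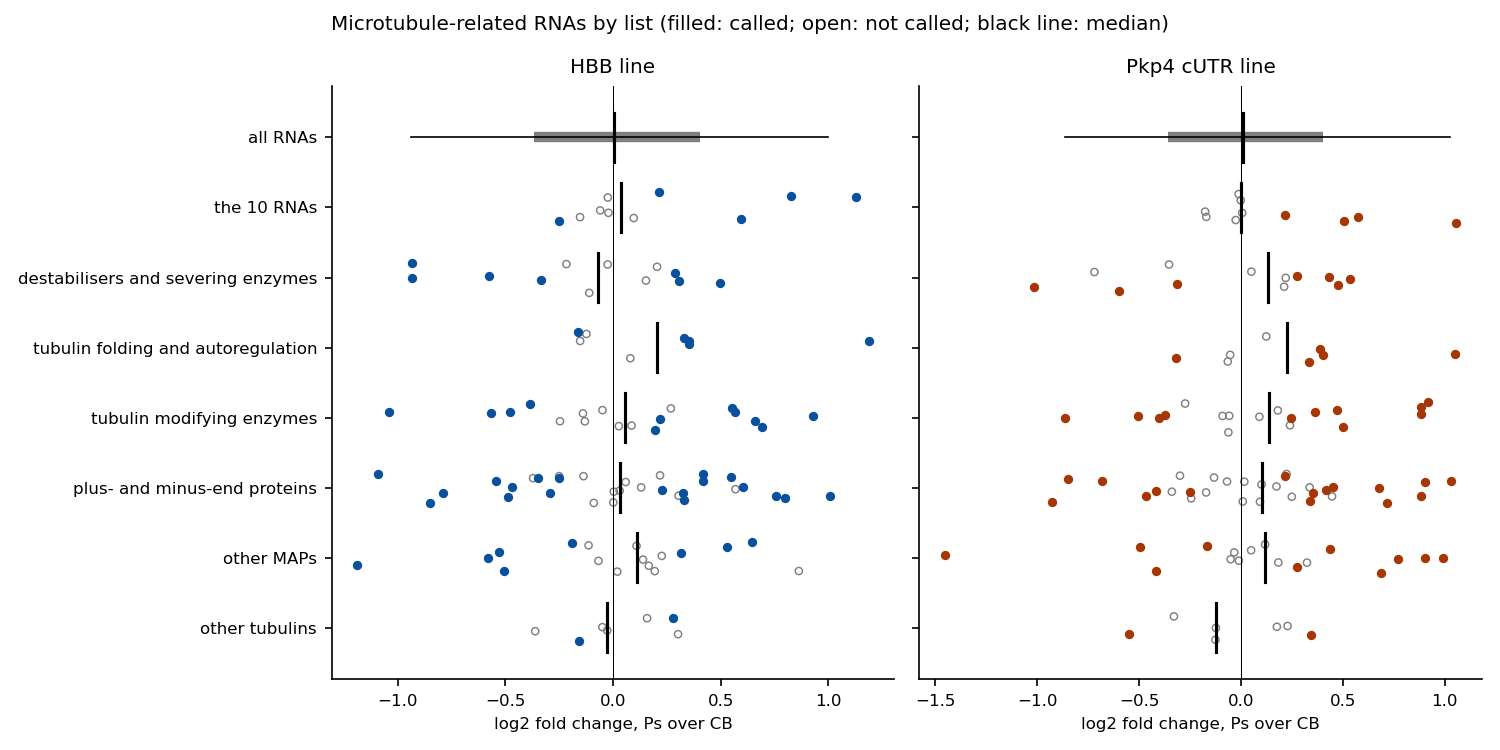
Log2 fold change of Ps over CB (x axis) for the RNAs of 6 microtubule lists and the 10 RNAs (y axis) in each line; filled points passed an adjusted p of 0.05, black lines are medians, and for all RNAs the thick bar spans the 25th to 75th and the thin bar the 5th to 95th percentile. The medians of the lists lie between −0.12 and 0.23, inside the thick bar.

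The RNA whose log2 CPM followed each member most closely over the 16 samples, among 10154 with a mean log2 CPM above 1, was found by Pearson's r as a description, since the 4 groups shape these values. For the binding proteins it was Trim41 for Map4 (r = 0.990), Zeb1 for Map1b (0.984) and Cyb5r3 for Mapre1 (0.984). For the tubulins it was Tubb2a for Tuba1a (0.837), Hebp1 for Tuba1b (0.956), Cdt1 for Tuba1c (0.933), Gabarapl1 for Tubb5 (0.951), Alkbh2 for Tubb6 (0.856), Tacr2 for Tubb2a (0.955) and Adprhl2 for Tubb4b (0.954). Likeness of pattern is not likeness of size: Cyb5r3 rose by 3.14 in HBB protrusions and Mapre1 by 0.59.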

How the data were processed

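RNA-Seq of 16 samples (4 each of Ps and CB from the HBB and the Pkp4 cUTR line) was analysed. The authors aligned paired reads to mm10 with STAR 2.4.2a, counted them with Rsubread, and deposited log2 CPM for 12900 RNAs from limma-voom 3.26.1, after leaving out RNAs of low level. The method of library scaling is not given in the sources used here. From these log2 values whole reads were recovered (100% within 0.01 of a whole number) and fitted with the authors' scaled library sizes by limma-voom (limma 3.58.1, R 4.3.3), with a mean for each group, voom's weights, all samples in one fit and Benjamini-Hochberg adjustment over all RNAs. Only the main fit was tested on simulated data, with independent samples and for Ps over CB of the HBB line.

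Same-numbered samples of both lines deviated together (r 0.331 to 0.628 in CB, 0.196 to 0.392 in Ps, over 10154 RNAs), so a block shared by the lines stands beside the line comparisons. Between Ps and CB of a line, r was 0.0455 to 0.389 in HBB, where 1 of 4 pairs was under 0.1, and −0.362 to 0.00248 in Pkp4, so neither was taken as paired. The shared block still gives Ps and CB of equal number a common effect.

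Lengths, positions and sequences come from GENCODE vM21 (GRCm38). Of the RNAs 95.5% matched by symbol. The ends of the coding sequences are not reported here. In the lists, the named genes are the 3 of smallest p in the mean of both Ps contrasts (mean log2 CPM above 1), and Vash1, Vash2, Svbp and Ttl. Eml4 and Tube1 are named in addition. In comparisons of the lines, members of an unadjusted p under 0.1 are given singly. The members and lists were chosen with earlier results of these data known. Alternatives were other scalings, no weights, log2(CPM + 1), a mean log2 CPM above 0.5, replicate blocks, lengths and leaving out samples. A count of 3 reads is 0.0890 to 0.176 CPM, a limit of counting only.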

Additional observations from a re-analysis of the deposited data

Results flagged for a closer look

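Dixon's criterion for 4 samples was applied to the log2 CPM of the 10 members and of Pkp4, Eml4, Ttl, Vash2 and Svbp (listed as Ccdc23) in each group, 60 groups in all, of which chance marks about 1 in 20. It marked 3. Tuba1b in HBB protrusions was 8.15 in replicate 2, with the other samples between 8.39 and 8.42. Tubb4b in HBB cell bodies was 7.20 in replicate 2, with the others between 7.30 and 7.31. Map4 in HBB cell bodies was 7.46 in replicate 4, with the others between 7.62 and 7.64. No member's enrichment differed between the lines by the test of log2(Diff FC), and no values outside the comparisons were left unused.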

How the results depend on the processing

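Map1b, Map4 and Mapre1 were called higher in protrusions of both lines and Tubb4b lower in those of the HBB line under every alternative run, and no member was called for log2(Diff FC) under any of them. The calls of Tuba1b between fractions and of Tubb2a between lines were lost with reads scaled to totals and without single libraries. Counts of members are given as higher and lower at an adjusted p under 0.05, and the causes of changes were not tested. The scaling sets where 0 lies, so the direction of small tubulin differences is limited by it. Counting limits Map1b most, the member with the fewest reads.

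Within the HBB line 1 member was called lower, and there were 5 with reads scaled to totals and 2 with quantile normalization (Tubb4b and Tubb5). Tubb5 then had −0.289 (limma adjusted p = 0.00992), against −0.02 in the main fit. Called higher were 4 members, 3 with scaling to totals and 5 with quantile normalization, beside 28.3%, 15% and 28.15% of all RNAs. The member added by quantile normalization was Tubb6 (0.1525, limma adjusted p = 0.0496). Within the Pkp4 cUTR line, 0 were lower, against 6 with scaling to totals and 0 to 1 on leaving out single samples. Quantile normalization gave 1 lower there (Tubb5, limma adjusted p = 0.0343). Of all RNAs, scaling to totals called 43.5% lower in the HBB and 45.5% in the Pkp4 cUTR line, and quantile normalization 28.0% and 28.5%. For the blocks and for leaving out single samples, no such share was taken between fractions. With the replicate block 0 became 1 in the Pkp4 cUTR line (Tuba1c), and with the block shared by the lines 2 were lower in the HBB and 1 in the Pkp4 cUTR line. The block changed no call other than those given here or in the report.

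Of cell bodies between the lines, 1 member was higher, beside 3.42% of all RNAs. There were 0 with scaling to totals (2.403%), median centring (2.868%) or without both replicates 4 of the cell bodies (2%). Quantile normalization (3.279%) and the shared replicate block (4.7%) gave 3 each. For cell bodies, leaving out single samples gave 0 to 1 higher and 0 to 1 lower, with no share of all RNAs taken. Of protrusions, 1 was higher, beside 2.89% of all RNAs, against 0 with scaling to totals (1.57%) and 2 with the shared replicate block (4.47%). That block also called 1 lower, beside 5.87% of all RNAs. Without both replicates 4 of the cell bodies 2 were lower (5.81%), through a smaller shared spread and not through other estimates in protrusions. Leaving out single samples gave 0 to 1 in each direction, with no share of all RNAs taken. Of the 93 list genes, scaling to totals left 11 higher and 34 lower in the HBB line, and 13 higher and 37 lower in the Pkp4 cUTR line. Of all RNAs it called 15% higher and 43.5% lower in the HBB line, and 13.9% and 45.5% in the Pkp4 cUTR line.

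Some log2 fold changes of protrusions over cell bodies changed sign. In the HBB line, scaling to totals gave −0.0235 for Tuba1b and −0.141 for Tubb6, median centring 0.0026 for Tuba1a, and leaving out both replicates 4 of the cell bodies 0.0035 for Tubb5. In the Pkp4 cUTR line, scaling to totals gave −0.048 for Tuba1b and −0.2571 for Tubb5, and quantile normalization −0.2311 for Tubb5, 0.002 for Tuba1a, 0.0235 for Tubb6 and 0.0064 for Tubb2a. Median centring gave 0.027 for Tuba1a, 0.0021 for Tubb6 and 0.0167 for Tubb2a. Leaving out single samples gave −0.0908 to 0.0139 for Tuba1a and −0.0621 to 0.0212 for Tubb5 in the HBB line, and in the Pkp4 cUTR line −0.0261 to 0.0491 for Tuba1a, −0.0394 to 0.0517 for Tubb5, −0.0766 to 0.0156 for Tubb6 and −0.0545 to 0.0537 for Tubb2a.

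Without division by length, the mean isotype shares were 14.99% for Tuba1c, 72.96% for Tubb5, 5.295% for Tubb6, 10.07% for Tubb2a and 11.67% for Tubb4b. With the length of the longest coding transcript, an alternative chosen after seeing the data, they were 6.826% for Tubb6 and 14.16% for Tubb2a.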
